A study of Mus musculus with 9 samples.

Results

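The BCL2 family is the set of proteins that decide whether the outer membrane of the mitochondrion stays intact. Survival members such as BCL2, BCL-XL (Bcl2l1) and MCL1 hold the pore-forming effectors BAX and BAK in check. BH3-only members such as BIM (Bcl2l11), BID, BAD, PUMA (Bbc3) and BMF bind the survival members, and some also engage the effectors directly. When the effectors form pores, cytochrome c leaves the mitochondrion and the caspases are switched on. In blood-forming tissue, MCL1 is known to be needed by stem and progenitor cells, and BIM is known as a mediator of death after withdrawal of cytokines.

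Every probe set of the array, a group of short probes read as 1 measurement, whose only gene symbol was a named member was taken, across all 3 groups of sorted cells and whatever its values. Of the 10 genes named, 9 had such a probe set, out of 18193 genes measured in all, and Bax was not analysed here. The 9 genes were covered by 31 of the 45037 probe sets that are not controls. These were 6 of Mcl1, 5 each of Bcl2 and Bcl2l11, 4 of Bcl2l1, 3 each of Bid and Bmf, 2 each of Bak1 and Bad, and 1 of Bbc3.

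RNA came from sorted bone marrow cells of 6-week-old mice, with 3 arrays in each of 3 groups. The WT groups carried Ncstn flox/flox, and they were LSK cells (the fraction with stem and multipotent progenitors, sorted without lineage markers and with Sca1 and cKit) and GMP cells (granulocyte and macrophage progenitors, sorted without lineage markers or Sca1 and with cKit, CD34 and FcgammaRII/III). The NcstnKO group was GMP cells of Ncstn flox/flox Mx1-cre+ littermates, in which nicastrin, a subunit of the gamma-secretase complex that releases active Notch, is deleted. Both genotypes received 3 injections of polyIC, at 20 micrograms per gram of body weight, from day 14 of age, and were examined 4 weeks later. The Mx1 promoter answers to interferon in many cell types, so deletion was not confined to blood cells by design, and the Cre transgene, carried by the NcstnKO group only, cannot be told apart from the deletion. The labels do not say whether an array held cells of 1 mouse or of several, so the p-values measure the spread between these arrays.

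Checks on the arrays bear on what follows. The Ncstn probe set 1418570_at read 9.27 in WT GMP and 7.78 in NcstnKO GMP on the log2 scale, a difference of -1.50 (limma, adjusted p = 0.00132), while 1444532_at of the same gene read 6.39 and 6.53 (adjusted p = 0.753). Median intensity was 98.3 to 102.6 on LSK arrays and 65.4 to 68.6 on GMP arrays, so small differences between LSK and GMP depend on scaling. The median probe set was 0.20 lower in WT GMP than in LSK as deposited, but 0.06 higher after quantile normalization and 0.15 higher after centring each array on its 75th percentile. The log2 ratio of 3 prime to 5 prime Actb control signal, which reads RNA integrity, was 0.748 ± 0.108 in LSK, 0.577 ± 0.111 in WT GMP and 0.899 ± 0.140 in NcstnKO GMP (mean ± SD, n = 3 each), with no overlap of the GMP groups. Xist and Y-linked transcripts went against the labelled sex on 4 GMP arrays, WT 2 and 3 (labelled female) and NcstnKO 2 and 3 (labelled male). By transcripts all 3 NcstnKO arrays were female, beside 1 of 3 WT GMP arrays. The sexes read on the WT GMP arrays were those labelled for the NcstnKO arrays of the same number, and the reverse. Ncstn 1418570_at went with the group label on every GMP array, at 9.25, 9.31 and 9.26 on WT and 7.79, 7.78 and 7.76 on NcstnKO arrays. Of 6 measured LSK markers (such as Mecom and Procr), 6 were lower in WT GMP than in LSK, beside 29.2% of all genes. Of 7 measured GMP markers (such as Elane and Ms4a3), 6 were higher, beside 6.92% of all genes. After centring, 4 LSK markers were lower, beside 13.7% of all genes, and 6 GMP markers higher, beside 30.6%. A probe set on an array was called above background if it exceeded the 95th percentile of 27 unspiked bacterial control probe sets, a limit of 4.30 to 4.57 on the log2 scale. By this limit 28 of the 31 probe sets were above background on all 9 arrays.

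RefSeq sequence (GRCm38.p6) of the 250 bases before an annotated start is printed for the genes on which the results turn. These are Bcl2l11, which fell in both comparisons, Bbc3, which fell between LSK and GMP, and Bid and Bak1, which rose between them. Capitals mark exact matches, on either strand, to GTAAACA (a core that forkhead factors such as FOXO3 bind), CACGTG (an E-box), GGGCGG (a GC box) or TTCNNNGAA (a STAT motif).
Bcl2l11, chr2:128125788-128126037, plus strand: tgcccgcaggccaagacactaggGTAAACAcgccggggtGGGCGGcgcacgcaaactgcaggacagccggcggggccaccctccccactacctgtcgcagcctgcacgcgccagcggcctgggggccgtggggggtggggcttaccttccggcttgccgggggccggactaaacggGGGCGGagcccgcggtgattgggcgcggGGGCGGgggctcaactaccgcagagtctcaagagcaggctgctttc
Bbc3, chr7:16310011-16310260, plus strand: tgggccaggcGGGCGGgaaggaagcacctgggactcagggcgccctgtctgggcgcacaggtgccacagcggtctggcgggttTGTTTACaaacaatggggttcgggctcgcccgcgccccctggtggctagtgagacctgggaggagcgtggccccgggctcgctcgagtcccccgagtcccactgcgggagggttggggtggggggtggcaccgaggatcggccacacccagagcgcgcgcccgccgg
Bid, chr6:120916825-120917074, minus strand: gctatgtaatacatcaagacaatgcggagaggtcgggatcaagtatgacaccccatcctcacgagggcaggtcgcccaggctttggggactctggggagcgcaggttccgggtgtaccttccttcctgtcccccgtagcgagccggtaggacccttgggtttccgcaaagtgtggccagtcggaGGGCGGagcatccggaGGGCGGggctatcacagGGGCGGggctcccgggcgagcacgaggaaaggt
Bak1, chr17:27028628-27028877, minus strand: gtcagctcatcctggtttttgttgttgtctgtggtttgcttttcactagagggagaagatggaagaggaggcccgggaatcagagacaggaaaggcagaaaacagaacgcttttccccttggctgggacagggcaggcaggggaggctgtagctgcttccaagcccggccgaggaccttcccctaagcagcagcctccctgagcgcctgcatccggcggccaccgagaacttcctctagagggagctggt
The Bcl2l11 window, 1 of 2 listed for that gene, holds 1 forkhead match and 3 GC boxes, and the Bbc3 window, 1 of 3, holds 1 forkhead match and 1 GC box. For both genes the window with the forkhead letters is the one printed, and the others (the second of Bcl2l11 at chr2:128127325-128127574) hold 0 forkhead matches. That second window of Bcl2l11 holds 2 GC boxes. Of Bbc3, chr7:16309333-16309582 holds 5 GC boxes, and chr7:16310181-16310430 holds 7 GC boxes and 1 E-box. The latter overlaps the printed window, so the 18 windows are not all separate. The Bid window holds 3 GC boxes and the Bak1 window holds no match. GC content was 72.0% for Bcl2l11, 72.4% for Bbc3, 63.6% for Bid and 58.4% for Bak1, beside a median of 52.4% over 32841 promoters of the same length. The forkhead letters occurred in 2 of 18 windows listed for the 10 genes and in 3.17% of all 32841, and the GC box in 10 of 18 and in 32.7%. An E-box occurred in 2 of 18 and in 6.02% of all, and the STAT letters in 0 of 18 and in 7.02%. A match describes the letters only, and no binding was measured here.

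The first comparison asked how the family differs between normal LSK and GMP cells. In WT GMP against LSK, Bid and Bak1 rose, while Bcl2l1, Mcl1, Bcl2l11, Bbc3 and Bmf each had at least 1 probe set that fell, and no probe set of Bcl2 or Bad passed. The test was limma over all 45037 probe sets, called at an adjusted p under 0.05, and it called 14 of 31 probe sets of 7 genes, 3 higher and 11 lower. Of all probe sets 34.9% were called, 6.04% higher and 28.8% lower, so the count in each direction lies not far from the share in the whole array. The median log2 difference was -0.14 over the 31 probe sets and -0.20 over all. The split turned with scaling, since 7 rose and 5 fell after quantile normalization, and 8 rose and 3 fell after centring. WT GMP arrays did not overlap LSK arrays for 16 of 31 probe sets, 5 higher and 11 lower, beside 51.8% of all (11.5% higher, 40.3% lower). At an unadjusted p under 0.05, 15 of 31 passed, beside 45.6% of all. Without the 4 arrays whose transcripts go against their label, 3 probe sets were called (Bak1 1418991_at, Bid 1417045_at and Bcl2l11 1435448_at), with 1 WT GMP array left, which is assumed to vary like the LSK arrays.

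The second comparison asked what loss of nicastrin does in GMP cells. Bcl2l11, which encodes the BH3-only protein BIM, was the gene of this family that fell, by 2.27-fold at its brightest probe set. limma called 2 of 31 probe sets, both of Bcl2l11 and both lower, beside 1.75% of all 45037 probe sets (0.604% higher, 1.15% lower). The 3 NcstnKO arrays did not overlap the 3 WT arrays for 11 of 31 probe sets, 5 higher and 6 lower, beside 27.2% of all probe sets (14.9% higher, 12.3% lower). The 6 lower ones were 3 of Bcl2 and 3 of Bcl2l11, and the 5 higher ones were 2 of Mcl1, 2 of Bad and 1 of Bmf. At an unadjusted p under 0.05, 8 of 31 passed, beside 19.8% of all. The median log2 difference was -0.07 over the 31 probe sets and 0.04 over all.

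**Figure D1:**
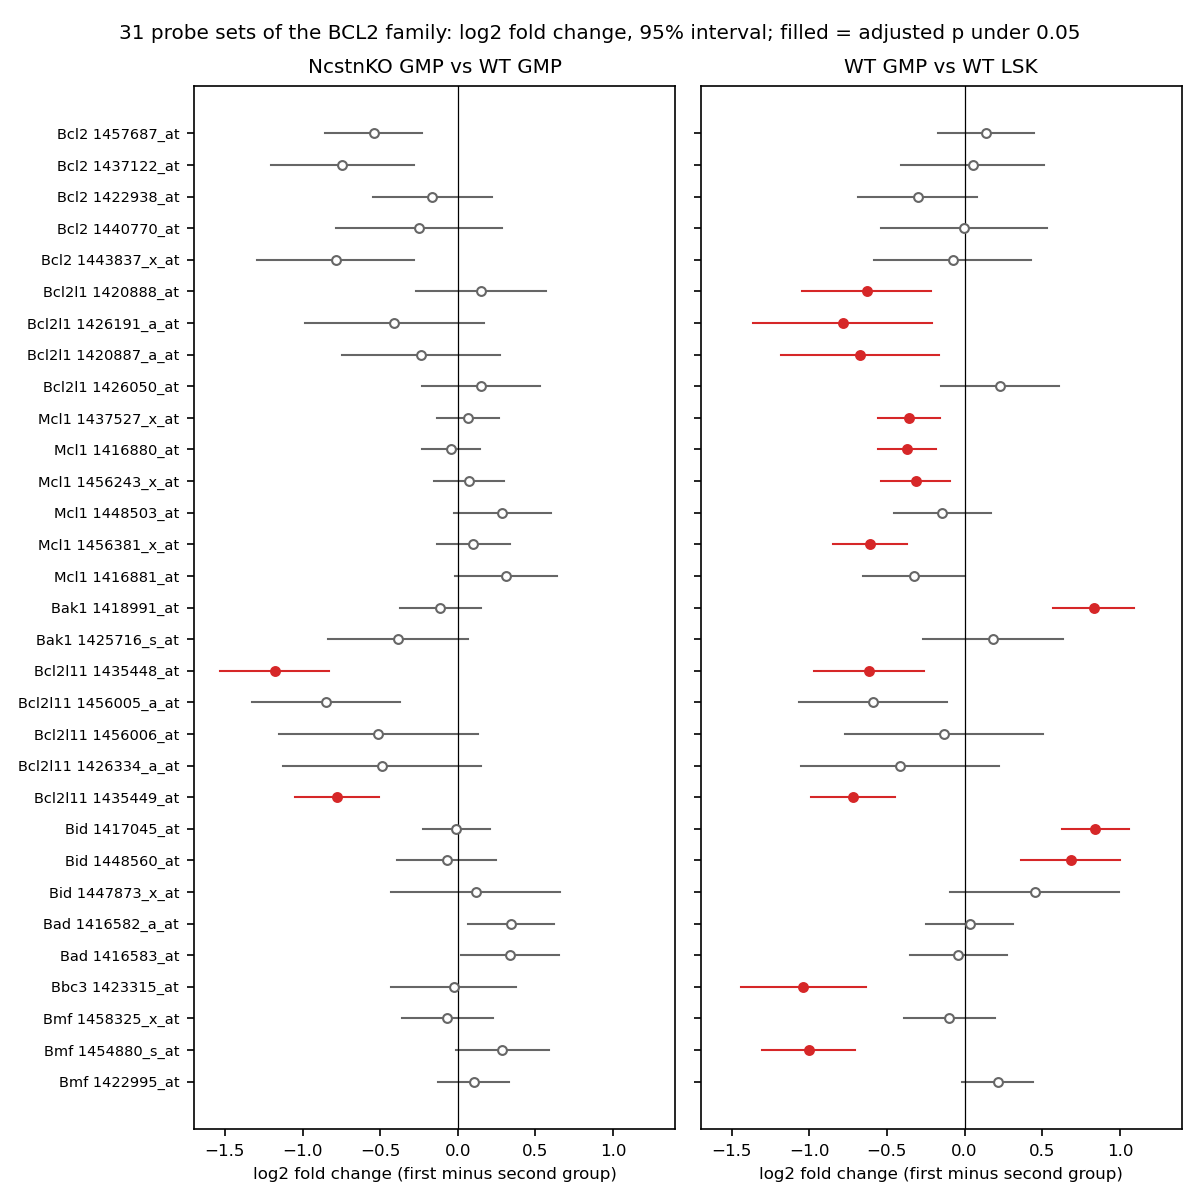
Log2 difference (x axis) of each of the 31 probe sets (y axis) for NcstnKO GMP minus WT GMP (left) and WT GMP minus WT LSK (right), with 95% intervals from limma; filled red points passed at an adjusted p under 0.05. On the left 2 probe sets of Bcl2l11 are filled, at -1.18 and -0.78, and on the right 3 points are filled above 0 (Bak1 and 2 of Bid) and 11 below it.

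Among the survival genes, Bcl2, the founding member, kept a similar level from LSK to GMP and read lower on the NcstnKO arrays without passing the test. Its brightest probe set, 1457687_at, read 10.44, 10.45 and 10.56 on LSK arrays, 10.49, 10.72 and 10.65 on WT GMP arrays and 10.32, 10.11 and 9.80 on NcstnKO GMP arrays. The NcstnKO arrays were below every WT array of either cell type. The difference between the GMP groups was -0.54 (95% interval -0.85 to -0.23, limma adjusted p = 0.0807), a ratio of 1.46-fold, and no alternative fit brought it under the threshold.

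The other probe sets of Bcl2 differed in size. 1437122_at read 9.70, 10.47 and 10.27 on WT GMP arrays and 9.66, 9.36 and 9.19 on NcstnKO arrays, a difference of -0.74 (limma adjusted p = 0.0951), with the first WT array only 0.04 above the highest NcstnKO array. 1443837_x_at read 4.86, 5.65 and 5.63 against 4.34, 4.72 and 4.73, a difference of -0.79 (adjusted p = 0.104), at levels near the background limit. The GMP groups overlapped at 1422938_at (-0.16) and 1440770_at (-0.25). When the Actb ratio entered as a covariate, the 5 differences were -0.64, -0.58, -0.05, 0.28 and -0.09 in the order 1457687_at, 1437122_at, 1443837_x_at, 1422938_at and 1440770_at, so 1422938_at changed sign. Between LSK and WT GMP the 5 differences ran from -0.30 to 0.14, and 0 passed as deposited, while 1457687_at passed as higher in GMP after centring (0.49, adjusted p = 0.0226).

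Bcl2l1 encodes BCL-XL, a survival protein known from the erythroid lineage. 1420888_at read 8.60, 8.80 and 8.73 on LSK arrays, 8.13, 8.36 and 7.75 on WT GMP arrays and 8.13, 8.54 and 8.02 on NcstnKO GMP arrays. LSK arrays were above every GMP array, and the GMP groups overlapped. The difference between WT GMP and LSK was -0.63, a fall of 1.55-fold (95% interval -1.05 to -0.21, limma adjusted p = 0.0279). 1426191_a_at and 1420887_a_at fell too, with differences of -0.79 (adjusted p = 0.0412) and -0.67 (adjusted p = 0.0462), and 1426050_at was at background in all groups.

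The calls for Bcl2l1 were lost after quantile normalization, where the 3 differences were -0.15, -0.21 and -0.13, and after centring, where they were -0.28, -0.44 and -0.32. With the replicate number as a block over the arrays of all groups, 1426191_a_at (adjusted p = 0.0575) and 1420887_a_at (adjusted p = 0.0550) were lost as well. With labelled sex as a covariate all 3 were lost (adjusted p 0.131 to 0.195). Transcript sex, which goes against the label on 4 GMP arrays, left 1420888_at called, and 1426191_a_at and 1420887_a_at were lost. The Actb ratio as a covariate did the opposite: 1420888_at was lost, and 1426191_a_at and 1420887_a_at stayed called. The call of 1420888_at ended without LSK 2, LSK 3, WT GMP 1 or WT GMP 3 (differences -0.66 to -0.46). That of 1426191_a_at ended without LSK 1, LSK 3, WT GMP 1, WT GMP 3 or NcstnKO 3 (-0.79 to -0.62), and that of 1420887_a_at without LSK 1, LSK 3, any WT GMP array or NcstnKO 3 (-0.76 to -0.54). Between the GMP groups the 4 differences ran from -0.41 to 0.15, and the widest interval, of 1426191_a_at, reached from -0.99 to 0.17.

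Mcl1 encodes a short-lived survival protein. 1416880_at read 12.75, 12.63 and 12.62 on LSK arrays, 12.36, 12.27 and 12.27 on WT GMP arrays and 12.27, 12.26 and 12.23 on NcstnKO GMP arrays. Every LSK array was above every GMP array, and the GMP groups touched. The difference between WT GMP and LSK was -0.37 (95% interval -0.56 to -0.18, limma adjusted p = 0.00899), a fall of 1.29-fold.

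Of the 6 probe sets of Mcl1, 4 fell from LSK to WT GMP, by differences of -0.31 to -0.61 with adjusted p from 0.00276 (1456381_x_at) to 0.0367 (1456243_x_at). The 4 calls held after quantile normalization (-0.31 to -0.58) and none held after centring, where the differences were -0.01, -0.02, 0.03 and -0.26 and that of 1456243_x_at changed sign. The call of 1456243_x_at ended without LSK 1, LSK 2, WT GMP 2, WT GMP 3 or NcstnKO 2 (differences -0.32 to -0.26), and the other 3 calls held without each array in turn. When the Actb ratio entered as a covariate, 1437527_x_at (adjusted p = 0.0737) and 1456243_x_at (adjusted p = 0.173) were lost. Between the GMP groups the 6 differences ran from -0.04 to 0.31 and 0 passed. 1448503_at read 11.81, 11.79 and 11.41 on WT arrays and 11.94, 12.04 and 11.89 on NcstnKO arrays, and 1416881_at read 10.63, 10.93 and 10.96 against 11.09, 11.22 and 11.15. At these probe sets the NcstnKO arrays were above every WT GMP array, with differences of 0.29 (adjusted p = 0.290) and 0.31 (adjusted p = 0.280). The other 4 overlapped, with intervals of the difference inside -0.23 to 0.34.

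Bak1, the measured effector, encodes BAK, which sits in the mitochondrial membrane and forms pores on activation. 1418991_at read 10.18, 10.32 and 10.32 on LSK arrays, 11.17, 11.13 and 11.01 on WT GMP arrays and 10.76, 11.10 and 11.10 on NcstnKO GMP arrays. Every GMP array was above every LSK array. Bak1 rose 1.78-fold from LSK to WT GMP, a difference of 0.83 (95% interval 0.57 to 1.09, limma adjusted p = 0.00107), and the call held after quantile normalization (1.03), after centring (1.18) and without each array in turn (0.79 to 0.88). Between the only LSK array and the only WT GMP array of female transcripts the difference was 0.99, a value with no replicates. The second probe set, 1425716_s_at, gave 0.18 (adjusted p = 0.502) as deposited and 0.75 (adjusted p = 0.0216) after quantile normalization. Between the GMP groups the differences were -0.11 (95% interval -0.37 to 0.15) and -0.38 (95% interval -0.84 to 0.07), and the groups overlapped.

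**Figure D2:**
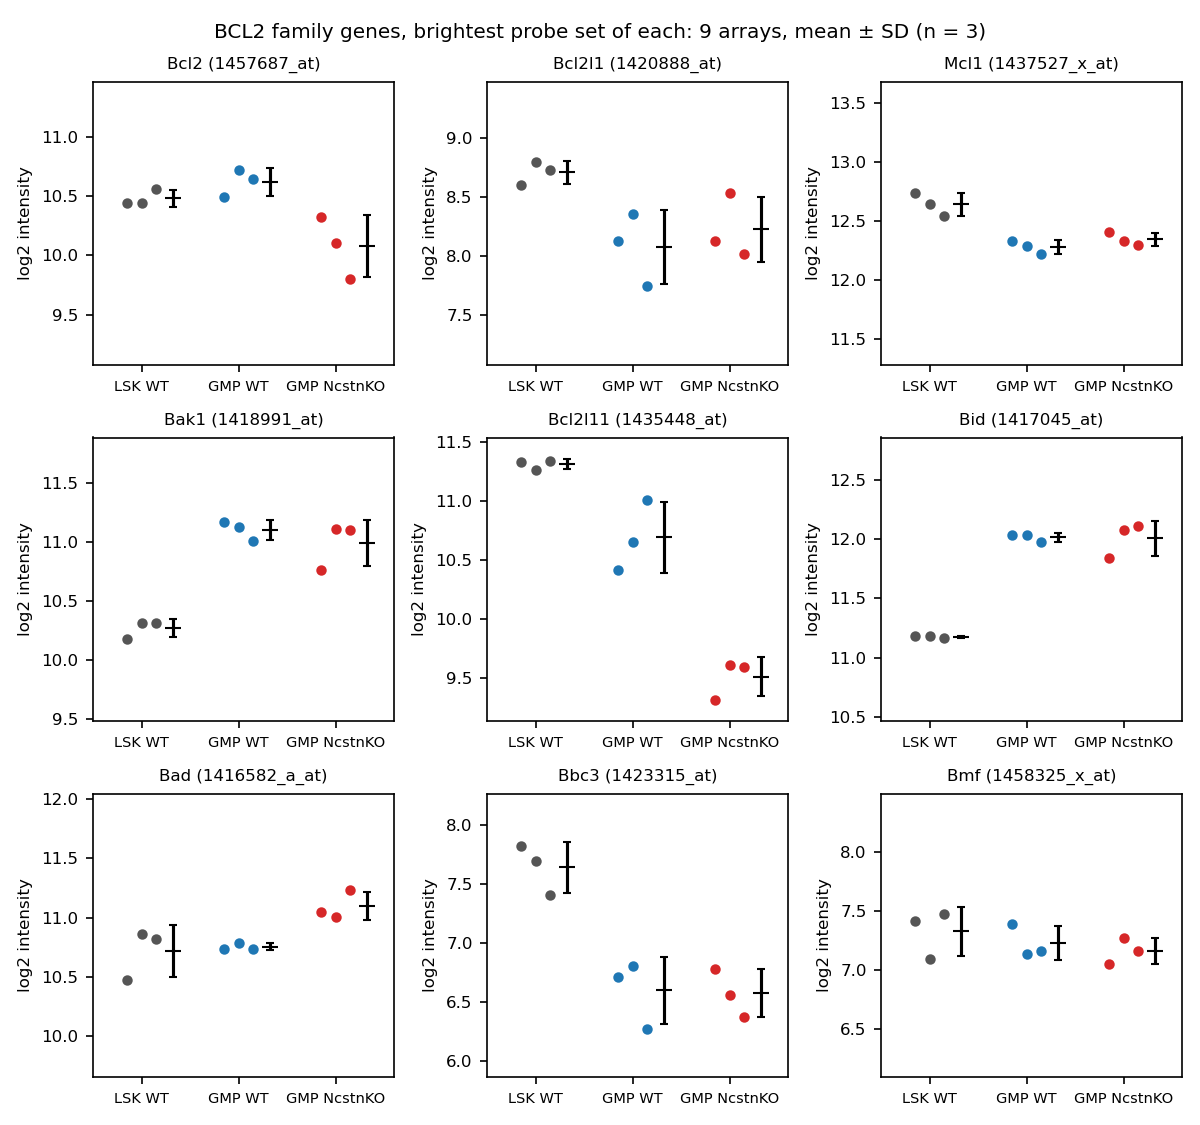
Log2 intensity (y axis, of the same span in each panel but starting at different levels) of the brightest probe set of each of the 9 genes on LSK WT, GMP WT and GMP NcstnKO arrays; points are arrays and bars are mean ± SD (n = 3). Bid and Bak1 lie higher on all 6 GMP arrays than on the 3 LSK arrays, Bbc3 lies lower on them, and Bcl2l11 steps down at each group.

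Among the BH3-only genes, Bcl2l11 stepped down at its brightest probe set from LSK to WT GMP and again to NcstnKO GMP. Its brightest probe set, 1435448_at, read 11.33, 11.26 and 11.34 on LSK arrays, 10.42, 10.65 and 11.01 on WT GMP arrays and 9.32, 9.62 and 9.60 on NcstnKO GMP arrays. The 3 groups did not overlap, and the lowest WT GMP array was 0.80 above the highest NcstnKO array. The difference between the GMP groups was -1.18 (SE 0.15, 95% interval -1.53 to -0.83), 2.27-fold lower in NcstnKO (limma adjusted p = 0.0313). In bulk RNA, fewer cells that carry a transcript and less transcript per cell cannot be told apart.

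1435449_at of Bcl2l11 read 5.20, 5.18 and 5.02 on WT GMP arrays and 4.23, 4.58 and 4.26 on NcstnKO arrays, the latter with a mean not above background. It fell at least 1.56-fold (fitted difference -0.78, limma adjusted p = 0.0328). 1456005_a_at read 9.65, 9.04 and 9.77 against 8.49, 8.92 and 8.51, without overlap, a difference of -0.85 that did not pass (95% interval -1.32 to -0.37, adjusted p = 0.0757). At 1456006_at and 1426334_a_at the GMP groups overlapped, with differences of -0.51 (adjusted p = 0.356) and -0.49 (adjusted p = 0.377). All 5 probe sets thus had a lower mean in NcstnKO, and the mean of the 5 differed by -0.76 (SE 0.13, adjusted p = 0.0265 over 18193 genes). The 5 are not all separate readings. The platform lists the same source sequence for the 2 called probe sets, 1435448_at and 1435449_at, and another for both 1456005_a_at and 1456006_at.

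**Figure D3:**
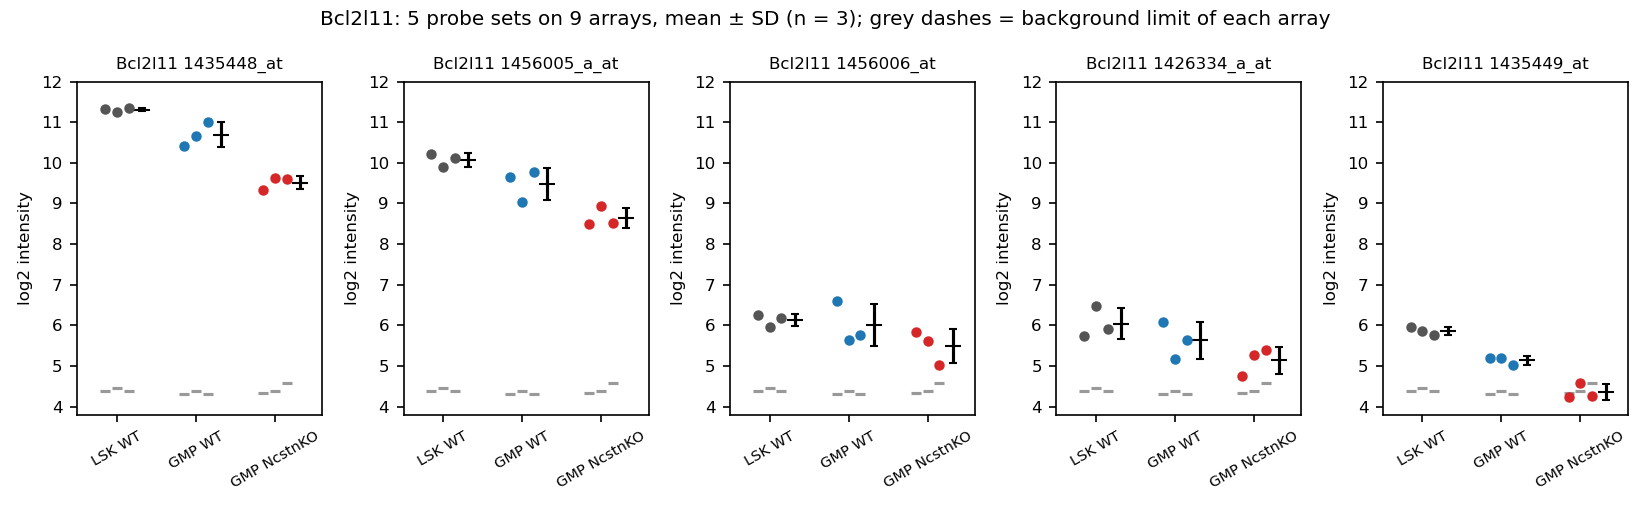
Log2 intensity (y axis) of the 5 probe sets of Bcl2l11 on LSK WT, GMP WT and GMP NcstnKO arrays; points are arrays, bars are mean ± SD (n = 3) and grey dashes are the background limit of each array. The mean is lowest in NcstnKO GMP at each of the 5 probe sets, and 1435449_at lies at the limit there.

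The size of the Bcl2l11 difference was steadier than its call. At 1435448_at it ran from -1.32 to -1.02 when each array was left out in turn, and the call ended without any 1 of the 6 GMP arrays, LSK 1 or LSK 3 (adjusted p 0.0507 to 0.123), while it held without LSK 2 (adjusted p = 0.0482). That of 1435449_at ended without any 1 of the 9 arrays (-0.89 to -0.72, adjusted p 0.0503 to 0.131). Calls over the whole array fell in the same way, from 790 probe sets to between 1 and 285. The difference at 1435448_at was -1.18 in a fit of the 2 GMP groups alone (adjusted p = 0.0805), -1.27 with labelled sex as a covariate (adjusted p = 0.115) and -1.05 with transcript sex (adjusted p = 0.128). Without the 4 arrays whose transcripts go against the label it was -1.10, a difference of 1 array against 1, and between 3 NcstnKO arrays and the 1 WT GMP array of female transcripts it was -0.91 (adjusted p = 0.454, with the lone array assumed to vary like the others). With the Actb ratio as a covariate it was -0.80 (adjusted p = 0.430), and limma then called 0 probe sets of the array, with 3966 at an unadjusted p under 0.05.

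Some markers of other cells also differed between the GMP groups, beside 1.46% of all 18193 genes lower and 0.846% higher. Of 12 measured erythroid markers, 5 were lower in NcstnKO than in WT GMP (Klf1, Ermap, Aqp1, Car1 and Car2), with a median log2 difference of -1.51 over the 12. Their summed intensity was 43897 to 52966 on LSK arrays, 22849 to 37127 on WT GMP arrays and 12985 to 17138 on NcstnKO arrays, and Hba-a1 was at background in all 3 groups. Of 7 macrophage markers 2 were lower (C1qa and C1qc), with sums of 2866 to 3701 and 2261 to 4597, and of 7 megakaryocyte markers 1 was lower (Vwf), with sums of 5696 to 7511 and 4373 to 5821. Of 10 late neutrophil markers 0 were called, all 10 had a positive difference, and the sums were 33033 to 43522 on WT and 46688 to 52952 on NcstnKO arrays. None of the macrophage, megakaryocyte or neutrophil markers was at background. Of 7 B and lymphoid, 7 T and NK and 7 stromal and endothelial markers, 0 were called. Their sums were 2894 to 4157, 9240 to 10280 and 892 to 1355 on WT GMP arrays. On NcstnKO arrays these sums were 1237 to 8791, 8574 to 10156 and 623 to 921. The calls of Car1 and Vwf ended without any 1 of the 9 arrays, those of Ermap, Aqp1 and C1qa without any 1 of 8, those of Klf1 and Car2 without any 1 of 7 and that of C1qc without any 1 of 4. Vwf was also lost after quantile normalization (-0.95, adjusted p = 0.0575). The part of these cells, of the Actb ratio and of sex in the result was not tested further.

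From LSK to WT GMP, Bcl2l11 fell 1.53-fold at 1435448_at, a difference of -0.62 (limma adjusted p = 0.0155), and by a difference of -0.72 at 1435449_at (adjusted p = 0.00241). 1456005_a_at did not pass, at -0.59 without overlap of the groups (adjusted p = 0.0574). The groups overlapped at 1456006_at (-0.13, adjusted p = 0.746) and 1426334_a_at (-0.41, adjusted p = 0.282). The mean of the 5 probe sets differed by -0.494 (SE 0.125, adjusted p = 0.0127 over 18193 genes). The call of 1435448_at held after quantile normalization (-0.49) and with transcript sex as a covariate. It was lost after centring (-0.27, adjusted p = 0.196) and with labelled sex as a covariate (-0.53, adjusted p = 0.0814). That of 1435449_at held after centring (-0.37) and not after quantile normalization (-0.26, adjusted p = 0.131), and both held without each array in turn. Markers of other cells were called lower here as deposited, beside 29.2% of all genes. Among them were 5 of 12 erythroid, 9 of 10 late neutrophil, 5 of 7 megakaryocyte, 4 of 7 T and NK (with 1, Nkg7, higher) and 5 of 7 B and lymphoid markers. The B and lymphoid sums were 12734 to 18401 on LSK and 2894 to 4157 on WT GMP arrays. Those of the T and NK markers were higher on WT GMP arrays, at 9240 to 10280 beside 5037 to 7396 on LSK arrays. After quantile normalization 1 erythroid, 8 late neutrophil, 4 megakaryocyte, 4 T and NK and 3 B and lymphoid markers were called lower, beside 14.5% of all genes. After centring the counts were 3, 7, 3, 4 and 3 in the same order, beside 13.7%. Nkg7 was higher under both scalings, and the megakaryocyte marker Itga2b was higher after quantile normalization. The part of these cells in the difference was not tested.

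Bid encodes the BH3-only protein that caspase-8 cleaves, a link from death receptors to mitochondria. 1417045_at read 11.18, 11.18 and 11.16 on LSK arrays, 12.04, 12.04 and 11.97 on WT GMP arrays and 11.84, 12.07 and 12.11 on NcstnKO GMP arrays. Every GMP array was above every LSK array, and the GMP groups overlapped. Bid rose 1.79-fold from LSK to WT GMP, a difference of 0.84 (95% interval 0.63 to 1.06, limma adjusted p = 0.000403). 1448560_at rose 1.61-fold (0.68, adjusted p = 0.00651), and 1447873_x_at had a difference of 0.45 that passed only after scaling. Both calls held after quantile normalization (0.94 and 1.11), after centring (1.19 and 1.03) and without each array in turn. Between the 1 LSK and 1 WT GMP array of female transcripts they were 0.86 and 0.48. Between the GMP groups the difference at 1417045_at was -0.01 with a 95% interval of -0.22 to 0.21.

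Bad encodes a BH3-only protein that growth factor signalling holds inactive by phosphorylation. 1416582_a_at read 10.47, 10.86 and 10.82 on LSK arrays, 10.74, 10.79 and 10.73 on WT GMP arrays and 11.050, 11.005 and 11.229 on NcstnKO GMP arrays. The NcstnKO arrays were above all 6 others. The difference between the GMP groups was 0.34 (95% interval 0.06 to 0.62, limma adjusted p = 0.171), and 1416583_at gave 0.34 (adjusted p = 0.223), so neither passed. Between LSK and WT GMP the differences were 0.03 and -0.04, and 1416582_a_at passed as higher in GMP only after centring (0.38, adjusted p = 0.0341).

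Bbc3 encodes PUMA, a target of p53 and of FOXO3. Its probe set 1423315_at read 7.82, 7.70 and 7.41 on LSK arrays, 6.72, 6.81 and 6.28 on WT GMP arrays and 6.78, 6.57 and 6.38 on NcstnKO GMP arrays. LSK arrays were above all GMP arrays, and the GMP groups overlapped. Bbc3 fell 2.06-fold from LSK to WT GMP, a difference of -1.04 (95% interval -1.44 to -0.64, limma adjusted p = 0.00279), and the call held after centring (-0.69, adjusted p = 0.0147) and without each array in turn. After quantile normalization the difference was -0.46 (adjusted p = 0.0760). Between the GMP groups it was -0.03 with a 95% interval of -0.43 to 0.38.

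Bmf encodes a BH3-only protein tied to the cytoskeleton. 1454880_s_at read 6.76, 7.23 and 7.19 on LSK arrays, 6.03, 6.09 and 6.05 on WT GMP arrays and 6.26, 6.35 and 6.41 on NcstnKO GMP arrays. LSK arrays were highest and WT GMP arrays lowest, with no overlap of the 3 groups. It fell 2.01-fold from LSK to WT GMP (95% interval of the log2 difference -1.30 to -0.71, limma adjusted p = 0.000818), which held after centring (-0.66, adjusted p = 0.00514) and not after quantile normalization (-0.42, adjusted p = 0.0507). The NcstnKO difference of 0.28 did not pass (adjusted p = 0.273). The probe sets of Bmf disagreed. 1458325_x_at had a difference of -0.10 between WT GMP and LSK as deposited and of 0.48 (adjusted p = 0.0283) after quantile normalization, and 1422995_at, above background on 4 of 9 arrays, had 0.21 as deposited and 0.47 (adjusted p = 0.00794) after it.

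**Figure D4:**
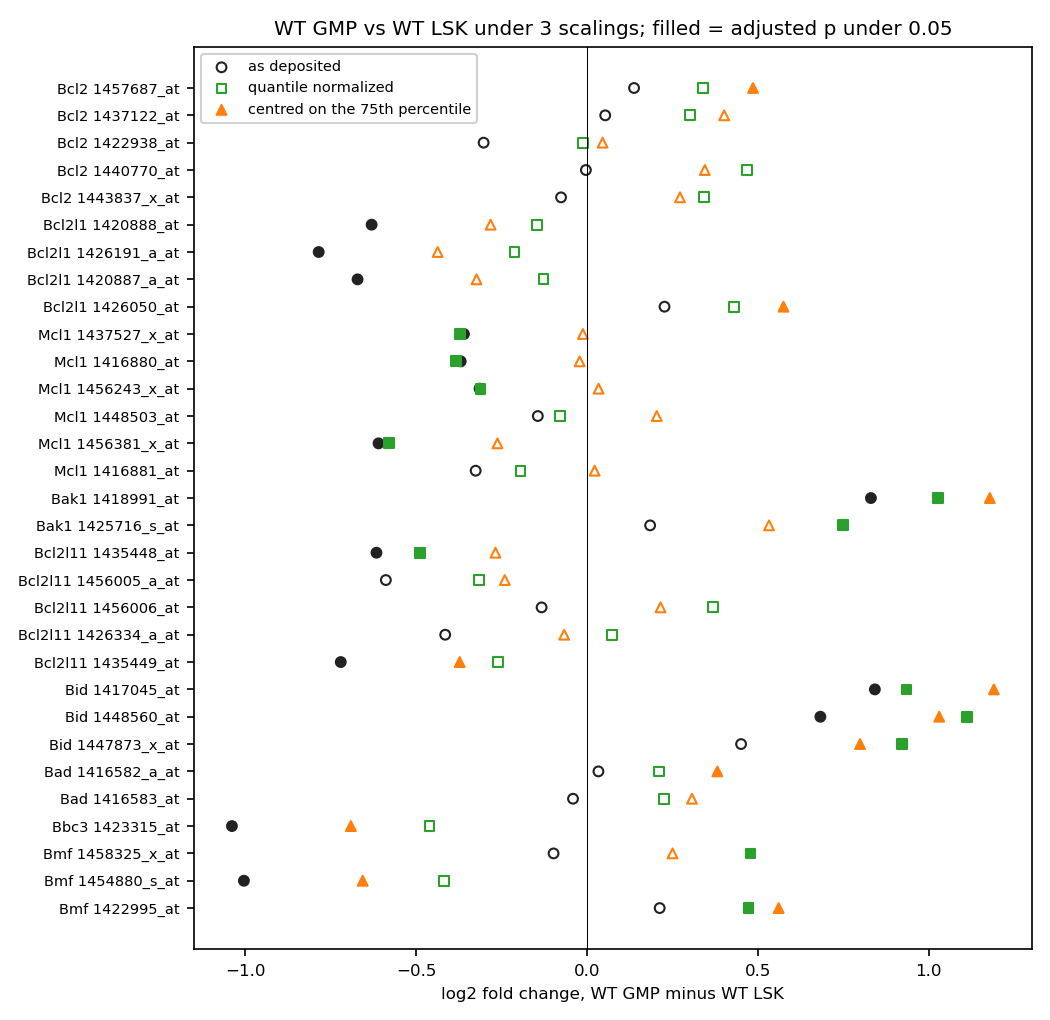
Log2 difference of WT GMP minus WT LSK (x axis) for the 31 probe sets (y axis) as deposited (circles), after quantile normalization (squares) and after centring each array on its 75th percentile (triangles); filled symbols passed at an adjusted p under 0.05. 1418991_at of Bak1 and 2 of the 3 probe sets of Bid are filled under all 3 scalings, while the 3 calls of Bcl2l1 are filled only as deposited.

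The genes around the family were read at the brightest probe set of each gene. In NcstnKO against WT GMP, limma called 0 of the 63 genes in 7 lists when p-values were adjusted over all 45037 probe sets, beside 0.846% of 18193 genes higher and 1.46% lower. At an unadjusted p under 0.05, 10 of the 63 were higher and 16 lower, beside 2294 higher and 1938 lower of all 18193 genes. When 1 probe set per gene was fitted and p-values were adjusted over 18193 genes, 9 of the 63 were called, Bnip3 and Birc2 higher and Bclaf1, Casp9, Foxo3, Foxo4, Huwe1, Stat5b and Akt1 lower (adjusted p 0.0301 to 0.0449), beside 2.44% of all genes higher and 3.26% lower. With the offset of 16 added before log2, 6 were called (1 higher, 5 lower), beside 1.53% of all genes higher and 2.47% lower. After centring 1 was called, Bnip3, as higher, beside 1.16% of all genes higher and 1.19% lower. These lists held 11 other measured BCL2 relatives, 10 genes of the apoptosome and caspases, 5 inhibitors of apoptosis, 8 death receptor genes, 9 regulators in the p53 and FOXO groups, 9 genes of BCL2 protein stability and 11 of cytokine survival signalling. The differences nearest the threshold, chosen after their values were seen, were 0.72 for Bnip3 (limma adjusted p = 0.0502), a BH3-like gene of hypoxia, -0.50 for Bclaf1 (adjusted p = 0.0502), 0.74 for Birc2 (adjusted p = 0.0603) and -0.55 for Casp9, the initiator caspase of the apoptosome (adjusted p = 0.0611). All 9 genes of the p53 and FOXO list had a negative difference, with a median of -0.19 beside 0.06 over all genes. Among them Foxo3 and Foxo4, forkhead factors, had differences of -0.41 (adjusted p = 0.0698) and -0.49 (adjusted p = 0.0693). Pmaip1, which encodes the BH3-only protein NOXA, also chosen after its value was seen, read 9.86 ± 0.46 in WT GMP and 11.02 ± 0.74 in NcstnKO (mean ± SD, n = 3), a difference of 1.16 that did not pass (adjusted p = 0.130).

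In WT GMP against LSK, 20 of the 63 genes in these lists were called lower and 2 higher as deposited, and the split depended on scaling. It was 12 lower and 8 higher after quantile normalization, and 6 lower and 17 higher after centring. These counts hold Fasl (lower) and, after centring, Bcl2l10 (higher), both at background in all 3 groups. Of all 18193 genes 6.92% were called higher and 29.2% lower as deposited, 18.1% and 14.5% after quantile normalization, and 30.6% and 13.7% after centring. Of the 11 BCL2 relatives 1 was called as deposited, Bok, an effector-like member, which fell (-1.43, limma adjusted p = 0.00146) under each scaling and without each array. Bcl2l2, Pmaip1 and Bcl2l12 were called higher under both scalings. Of the 10 apoptosome and caspase genes, Cycs, cytochrome c, rose (0.62, adjusted p = 0.00156), as did Apaf1, the scaffold of the apoptosome (0.53, adjusted p = 0.0120), and Casp6 fell (-1.23, adjusted p = 0.000122). These 3 held under each scaling, and Apaf1 was lost with the Actb ratio as a covariate (0.38, adjusted p = 0.0756). Casp8, Htra2 and Endog were called higher after centring only.

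Of the 9 p53 and FOXO genes 6 fell and 0 rose as deposited, 4 fell after quantile normalization and 2 after centring. Trp53inp1, a p53 target, fell (-1.76, limma adjusted p = 0.000421), as did Foxo1 (-1.54, adjusted p = 0.00327), and both held under each scaling. Foxo3 (-0.45, adjusted p = 0.00845) and Foxo4 (-0.53, adjusted p = 0.00854) were lost after centring, at -0.10 and -0.19. Of the 11 cytokine genes 4 fell and 0 rose as deposited. After centring 3 were called higher and 1 lower, with Il3ra, the receptor chain for interleukin-3, at 1.09 (adjusted p = 0.0102), Csf2rb at 0.79 (adjusted p = 0.00899) and Akt1 at 0.33 (adjusted p = 0.0213), and Il3ra and Csf2rb also passed after quantile normalization. Pim2, a survival kinase, fell (-1.43, adjusted p = 0.00137) under each scaling. Pim1 (-0.59) and Kit (-0.49) were lost after centring (-0.24 and -0.14) and without LSK 1 (adjusted p = 0.0561 and 0.0509). Jak2 (-0.41, adjusted p = 0.0414) was lost under both scalings, with the replicate block (adjusted p = 0.0656) and without any 1 of LSK 1, LSK 2, LSK 3, WT GMP 1 or WT GMP 2 (adjusted p 0.0648 to 0.128).

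Of the 5 inhibitors of apoptosis 3 fell and 0 rose as deposited, and of the 8 death receptor genes 3 fell, 0 rose and 1, Fasl, was called at background. After centring 0 inhibitors of apoptosis were lower and 2 were called higher, Birc5, also known as survivin (0.33, adjusted p = 0.0228), and Birc6 (0.50, adjusted p = 0.0132), and 0 death receptor genes above background were called. Birc2 (-0.70, limma adjusted p = 0.0108) and Birc3 (-0.58, adjusted p = 0.0206) were lost under both scalings, and Birc3 also without WT GMP 1 or WT GMP 3 (adjusted p = 0.0609 and 0.0585). Xiap (-0.29, adjusted p = 0.0296) changed sign after centring (0.05) and was lost after quantile normalization (-0.16), with the replicate block (adjusted p = 0.0539) and without LSK 1, LSK 3, WT GMP 1 or WT GMP 2 (adjusted p 0.0753 to 0.0918). Tradd, an adaptor, fell (-0.39, adjusted p = 0.0162) and was lost after centring (-0.04). Fas, the death receptor, fell (-1.08, adjusted p = 0.0310) and was lost under both scalings and without LSK 3 or any WT GMP array (adjusted p 0.0701 to 0.0814). Ripk3 (-0.38, adjusted p = 0.0490) was lost under both scalings and without any 1 of the 9 arrays (adjusted p 0.0570 to 0.146). Fasl was at background in all 3 groups, and its direction is not read. Of the 9 stability genes 1 was called as deposited, Fbxw7, part of a ubiquitin ligase that acts on MCL1, at -0.60 (adjusted p = 0.0147), lost after centring (-0.25) and without LSK 1 (adjusted p = 0.0506), while Huwe1, Dynll1 and Ywhaz were called higher after centring only.

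**Figure D5:**
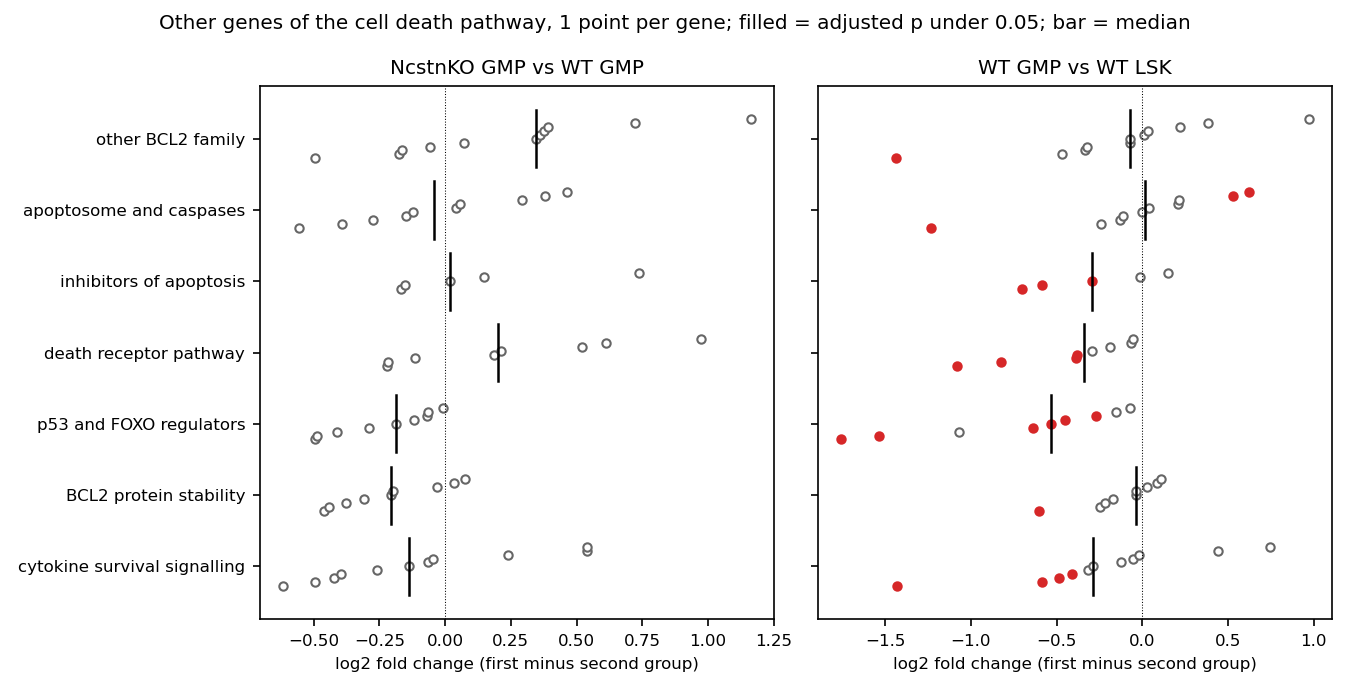
Log2 difference (x axis) of each measured gene of 7 lists around the family (y axis) for NcstnKO GMP minus WT GMP (left) and WT GMP minus WT LSK (right); values are as deposited, filled red points passed at an adjusted p under 0.05 and vertical bars are list medians. On the left 0 points are filled, and on the right the filled points lie below 0 except for Apaf1 and Cycs.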

How the data were processed

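RNA of 9 samples of sorted mouse cells was measured on 9 Affymetrix arrays. Per the labels' protocols, amplification started from 5 ng of total RNA and the product carried a biotin label. The authors deposited linear intensity values per probe set, and the submitters' processing notes name RMA (background correction, normalization between arrays and summary of the probes), without a version. Whether normalization ran over all 9 arrays at once is not given in the sources used here, and their medians differ between LSK and GMP. Log2 of the deposited intensities was taken with no offset, and 64 control probe sets were left out. Arrays have no sequencing depth, so their number (3 per group) limits the precision.

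GEO's platform annotation gave the gene symbols. Of 45037 probe sets, 34945 had 1 symbol, 932 several and 9160 none, and only those with 1 symbol were named. The symbols of all 9 genes matched RefSeq (GRCm38.p6), whose promoter table gave the sequences. The genes in question and all gene lists were chosen with earlier results of these data known. Named beside every probe set of the family are, for each list, up to 4 genes of smallest p among those called in either comparison (2 where none was called), the 3 genes most correlated with Bcl2 and with Bcl2l11, and those said to be chosen after their values were seen. Other genes were also named after their values were seen. They were markers that passed, were called or changed sign under an alternative, or lay at background. The test was the 2-sided moderated test of limma 3.58.1 (R 4.3.3, lmFit then eBayes), fitted to all 9 arrays with a mean for each of 3 groups, which leaves 6 residual degrees of freedom. The p-values were adjusted by Benjamini-Hochberg over all 45037 probe sets. Every adjusted p given is from limma. A fold against a group not above background is a lower bound, for which each array's signal was raised to the background limit where it lay below it.

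Replicate numbers 1 to 3 are shared by the groups (the LSK titles add the letter c). For LSK and WT GMP, the deviations from the group mean of arrays with 1 number correlated at 0.247, 0.247 and 0.296 over all probe sets, so these numbers were taken as a pairing that the data, not the labels, give. Same-numbered WT and NcstnKO GMP arrays correlated at -0.0275, 0.0236 and 0.0320 and were not taken as pairs. The main fit leaves the pairing out, so its p-values are unpaired. Only the replicate block, 1 of the alternatives, uses the numbers. The alternatives were quantile normalization, centring on the 75th percentile, an offset of 16, leaving out the dimmest 40% of probe sets, 1 probe set or the mean of the probe sets per gene, the 2 compared groups alone, labelled sex, transcript sex or the Actb ratio as a covariate, a replicate block, and leaving out each array. On simulated data the fit for NcstnKO against WT GMP recovered 37 of 50 probe sets changed by 1 on the log2 scale and 5 of 50 changed by 0.5. The simulated noise was independent between probe sets, with equal spread in the 3 groups. It held no differences in Actb ratio or sex, so these rates need not hold for the real arrays.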

Additional observations from a re-analysis of the deposited data

How the results depend on the processing

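In NcstnKO against WT GMP, the 2 probe sets called remained 2 after quantile normalization, centring and an offset of 16. They were 1 without the dimmest 40% of probe sets, with 1 probe set per gene and with the mean per gene, where fewer were tested. They were 0 in the fit of 2 groups alone, with either sex covariate, with the Actb ratio and with the replicate block, and 0 to 1 without each array, with 6 to 10 of 31 at an unadjusted p under 0.05 in these fits (limma). Over all probe sets the 790 calls became 497 after quantile normalization, 1295 with the offset, 1367 without the dimmest 40%, 2 with 2 groups, 1 with labelled sex, 4 with transcript sex, 0 with the Actb ratio, 9 with the replicate block and 1 to 285 without each array, and the cause was not tested. Centring moved the split from 34.4% to 47.0% higher. With the replicate block Bcl2l11 1435448_at stood at -1.18 (limma adjusted p = 0.0518) and 1435449_at at -0.78 (adjusted p = 0.0625), so both calls of this comparison were lost, although these numbers do not pair the GMP groups. In WT GMP against LSK the 14 calls were 6 with 1 probe set and 7 with the mean per gene (of 9 genes), and 11 to 14 without each array; under the replicate block 12 were called, 3 higher and 9 lower. Of all probe sets 15710 were called, 9379 without the dimmest 40%, 6910 and 7456 per gene, and 10130 with the Actb ratio. The split of all calls turned from 17.3% higher to 57.7% after quantile normalization and 67.6% after centring. Differences between WT GMP and LSK that were called as deposited or under the alternative and changed sign were 0.48 for Bmf 1458325_x_at and 0.37 for Akt2 (quantile normalization), and 0.034 for Mcl1 1456243_x_at, 0.054 for Xiap, 0.33 for Birc5, 0.076 for Mdm2, 0.31 for Ywhaz and 0.33 for Akt1 (centring). 2 alternatives were added after seeing the data, and both leave 1 array in at least 1 group, assumed to vary like the other groups, so these counts say nothing about stability. Without the 4 GMP arrays whose transcripts go against the labelled sex, calls were 0 of 31 and 0 of all (4028 at an unadjusted p under 0.05) for NcstnKO against WT GMP, and 3 of 31 and 3323 of all for WT GMP against LSK. With the 5 arrays of female transcripts, calls were 0 of 31 and 0 of all (3626 at an unadjusted p under 0.05), and 0 of 31 (11 at an unadjusted p under 0.05) and 1764 of all.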

Other observations

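The genes most like Bcl2 and Bcl2l11 over the 9 arrays are given as a description, with no test, since the arrays share the steps between the 3 groups. With the brightest probe set of Bcl2, the highest Pearson correlations among 18192 genes were 0.961 for Ptprs, a receptor tyrosine phosphatase, 0.95 for Dcp2, which removes the cap of messenger RNA, and 0.946 for Sfpq, an RNA-binding splicing factor, and 25 genes exceeded 0.9. With that of Bcl2l11 they were 0.996 for Itga4, an integrin subunit, 0.994 for Kat6a, a histone acetyltransferase, and 0.994 for Fbxo45, an F-box protein, and 964 genes exceeded 0.9.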
